A study of Mus musculus with 8 samples.

Results

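The small leucine-rich proteoglycans are secreted matrix proteins with a core of leucine-rich repeats, and 8 genes of the family were followed in RNA sequenced from whole mouse aortas: Dcn, Bgn, Lum, Fmod, Ogn, Prelp, Aspn and Kera. They were chosen by name, and each was found among the 48607 assembled loci of the table. A name with more than 1 locus was taken at the one with the largest summed count. The mice carried an ApoE knockout, which makes them prone to atherosclerosis, and were fed a Western diet for 12 weeks. By title, 5 libraries were ApoE-/- and 3 were NPRC-/-ApoE-/-, in which the natriuretic peptide receptor NPRC, encoded by Npr3, was also deleted in the whole body by a CRISPR-made frameshift in exon 1. All groups therefore lacked ApoE. The age at tissue collection is not given in the sources used here.

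The labels of the libraries disagreed. The genotype entered for each sample matched the title for 4 of 8 libraries, namely ApoE-/- 1, 2 and 3 and NPRC-/-ApoE-/- 3. Libraries titled ApoE-/- 4 and 5 were entered as the double knockout, and libraries titled NPRC-/-ApoE-/- 1 and 2 were entered as ApoE-/-. The columns of the deposited values were headed with the same names as the titles, which does not by itself show which label is right. Groups below follow the title, and every comparison was repeated by the genotype entry, which also gave 5 against 3. The methods of the study name 5 aortas of each genotype for sequencing, so neither label gave the number of double knockouts described there. The level of Npr3 did not settle the labels, since the 3 libraries titled NPRC-/-ApoE-/- held 1.18, 1.39 and 1.13 FPKM (fragments mapped to a transcript, scaled to its length and to the depth of the library) and the 5 titled ApoE-/- ranged from 0.62 to 1.69. A frameshift can leave the mRNA in place. Each library held 62969165 to 86693276 counts.

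Members of this family bind fibrillar collagens and limit the width and fusion of collagen fibrils, and several also hold growth factors such as TGF-β in the matrix. Dcn (decorin), Bgn (biglycan) and Aspn (asporin) form class I, and decorin and biglycan carry chondroitin or dermatan sulfate chains. Lum (lumican), Fmod (fibromodulin), Prelp and Kera (keratocan) form class II, whose members can carry keratan sulfate. Ogn (osteoglycin, also called mimecan) belongs to class III. In arteries, decorin is known mainly from the adventitia and biglycan from the intima, where it can bind lipoproteins. Soluble biglycan and decorin are also ligands of the Toll-like receptors TLR2 and TLR4.

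By FPKM, Bgn, Lum and Dcn were by far the most abundant members in the aorta, and Kera was close to undetected. The mean over 8 libraries was 198 FPKM for Bgn, 185 for Lum, 107 for Dcn, 32.3 for Ogn, 27.4 for Prelp, 11.3 for Fmod, 5.73 for Aspn and 0.0338 for Kera. Neighbours in this order were compared within libraries with an exact sign-flip permutation test over the 8 libraries (two-sided, 7 pairs, Benjamini-Hochberg adjusted). Bgn and Lum did not separate in FPKM, as Bgn was the higher in 4 of 8 libraries (exact permutation p = 0.367, adjusted p = 0.367). Lum exceeded Dcn in 7 of 8 libraries (exact permutation p = 0.0234, adjusted p = 0.0328). Ogn exceeded Prelp in 7 of 8 libraries, by 0.25 ± 0.29 on the log2 scale (SD, n = 8, exact permutation p = 0.0625, adjusted p = 0.0729). The other 4 steps in the order were seen in 8 of 8 libraries, each with an exact permutation p = 0.00781 and an adjusted p = 0.0137. The library NPRC-/-ApoE-/- 2 departed from the usual order, with Lum below Dcn and with Prelp above Ogn. This order depends on the length used for each locus, and the assembled loci held unequal numbers of transcripts, 17 for Prelp and 1 for Lum. Counts, which are not scaled to length, gave another order. Summed over the 8 libraries they were 912548 for Bgn, 473216 for Dcn, 348173 for Lum, 254112 for Prelp and 86951 for Ogn.

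**Figure D1:**
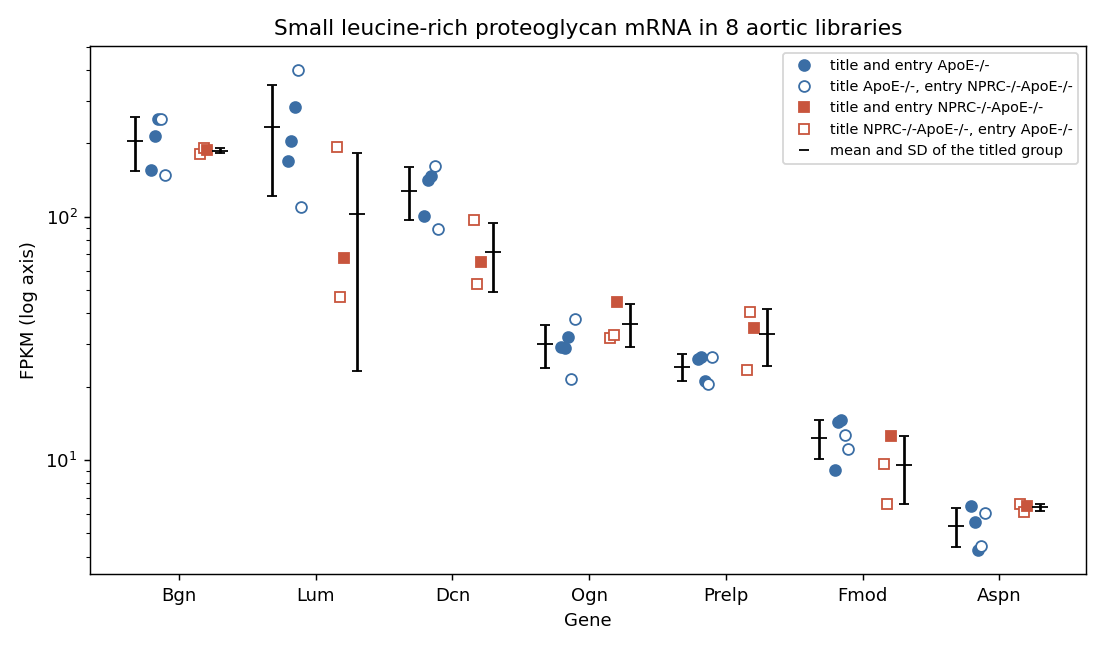
FPKM of 7 members (log axis) in 8 libraries, with the mean and SD of each titled group in black. Open symbols are libraries whose genotype entry conflicts with the title. Lum spread the most, from 46.57 to 401.3 FPKM, and no gene had titled groups that did not overlap.

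The collagen-binding members Dcn and Lum gave the largest differences by title, both toward lower levels in the double knockout. Dcn was at 100.7, 141.78, 147.16, 161.75 and 88.76 FPKM in the libraries titled ApoE-/- 1 to 5 and at 96.51, 52.77 and 65.03 FPKM in NPRC-/-ApoE-/- 1 to 3. NPRC-/-ApoE-/- 2 and 3 lay below every ApoE-/- library, and NPRC-/-ApoE-/- 1 lay inside their range. The means were 128 ± 31.5 (SD, n = 5) and 71.4 ± 22.6 FPKM (SD, n = 3), and the log2 fold change was -0.84 ± 0.30 (SE, edgeR quasi-likelihood test, unadjusted p = 0.0196, adjusted p = 0.309). Without NPRC-/-ApoE-/- 2 the log2 fold change was -0.63 (unadjusted p = 0.0859), and without NPRC-/-ApoE-/- 3 it was -0.79 (unadjusted p = 0.0586). By genotype entry, the Dcn means were 108 ± 38.4 and 105 ± 50.4 FPKM, and the log2 fold change was 0.00 ± 0.40 (edgeR, unadjusted p = 0.995).

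Lum was at 169.7, 205.64, 283.53, 401.3 and 109.87 FPKM in ApoE-/- 1 to 5 and at 193.47, 46.57 and 67.87 FPKM in NPRC-/-ApoE-/- 1 to 3. Again NPRC-/-ApoE-/- 2 and 3 were the lowest of all, while NPRC-/-ApoE-/- 1 sat in the middle of the ApoE-/- values. The log2 fold change was -1.21 ± 0.57 (SE, edgeR, unadjusted p = 0.0606, adjusted p = 0.382). Without NPRC-/-ApoE-/- 1 it was -2.01 (edgeR, unadjusted p = 0.00701, adjusted p = 0.108), and without ApoE-/- 5 it was -1.40 (unadjusted p = 0.029, adjusted p = 0.221). It was smaller without NPRC-/-ApoE-/- 2 (-0.84, edgeR unadjusted p = 0.186), without NPRC-/-ApoE-/- 3 (-0.99, edgeR unadjusted p = 0.174) and without ApoE-/- 4 (-0.88, edgeR unadjusted p = 0.131). By genotype entry, the libraries with the highest and the second lowest Lum were in the same group, and the log2 fold change was 0.14 ± 0.67 (SE, edgeR, unadjusted p = 0.835).

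Prelp, which anchors basement membranes to the collagen matrix, differed in the opposite direction. It was at 26.02, 26.45, 21.13, 20.52 and 26.54 FPKM in ApoE-/- 1 to 5 and at 23.45, 40.39 and 34.85 FPKM in NPRC-/-ApoE-/- 1 to 3. The libraries NPRC-/-ApoE-/- 2 and 3 were the highest of all, and NPRC-/-ApoE-/- 1 lay within the ApoE-/- range. The log2 fold change was 0.48 ± 0.19 (SE, edgeR, unadjusted p = 0.0293, adjusted p = 0.326), and by genotype entry 0.03 ± 0.26 (unadjusted p = 0.913). Without NPRC-/-ApoE-/- 2 the unadjusted p of Prelp was 0.132, without NPRC-/-ApoE-/- 3 it was 0.0983, and without ApoE-/- 3 or 4 it was 0.0522 and 0.0551 (edgeR). A second locus with the name Prelp, on the opposite strand inside the gene, was also read at 0.43 to 2.34 FPKM in ApoE-/- and 1.51 to 3.35 in NPRC-/-ApoE-/- libraries. Whether the counting used strand is not stated, so reads of these overlapping loci may not be fully separated.

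The other 4 tested members gave smaller values. Bgn was at 155.05, 215.39, 252.83, 252.95 and 148.04 FPKM in ApoE-/- 1 to 5 and at 181.89, 190.96 and 187.58 FPKM in the double knockout. The SD was 51.1 FPKM in ApoE-/- and 4.58 FPKM in the double knockout by title, and 36.9 and 53.0 FPKM by genotype entry, and the spread was not tested. By title the log2 fold change was -0.13 ± 0.26 (SE, edgeR, unadjusted p = 0.635). Fmod, which directs early collagen fibril assembly, ranged from 9.12 to 14.6 FPKM in ApoE-/- and from 6.57 to 12.53 FPKM in NPRC-/-ApoE-/- (log2 fold change -0.34 ± 0.26, unadjusted p = 0.219). Ogn ranged from 21.55 to 37.98 and from 31.56 to 44.79 FPKM (log2 fold change 0.32 ± 0.20, unadjusted p = 0.14). Aspn, an inhibitor of TGF-β and BMP signalling, ranged from 4.25 to 6.48 and from 6.11 to 6.56 FPKM (log2 fold change 0.29 ± 0.15, unadjusted p = 0.0795). Every double-knockout library lay above 4 of the 5 ApoE-/- libraries in Aspn. With 1 library left out, Fmod passed the unadjusted threshold without NPRC-/-ApoE-/- 3 (log2 fold change -0.62, edgeR unadjusted p = 0.0449, adjusted p = 0.739) and Aspn without ApoE-/- 1 (log2 fold change 0.35, edgeR unadjusted p = 0.0434, adjusted p = 0.371). In the other direction, Fmod was at -0.10 without NPRC-/-ApoE-/- 2 (edgeR, unadjusted p = 0.707, adjusted p = 0.956), and Ogn at 0.11 without NPRC-/-ApoE-/- 3 (edgeR, unadjusted p = 0.592, adjusted p = 0.907).

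Kera, best known from the cornea, was too low to test. It had 14, 7, 5, 10 and 13 counts in ApoE-/- 1 to 5 and 5, 0 and 8 counts in NPRC-/-ApoE-/- 1 to 3. The count of 0 allows up to 3 counts in that library, by counting error only. The counts scaled to the library (CPM) were 0.125 ± 0.0474 (SD, n = 5) and 0.0504 ± 0.0471 (SD, n = 3), with a two-sided exact permutation p = 0.0893 by title and 0.304 by genotype entry.

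Over the family, 1 of 7 tested members had an unadjusted p under 0.05 toward lower levels by title (Dcn) and 1 toward higher levels (Prelp). Of all 20506 loci tested, 7.13% passed that threshold as lower and 6.51% as higher. With a fold change above 2 or below 0.5 asked for as well, 0 of 7 members passed, against 3.47% of all loci. In 0 of 7 members did the titled groups fail to overlap in FPKM, against 4.37% of all loci that were lower without overlap and 2.88% that were higher. By genotype entry 0 of 7 passed the unadjusted threshold, against 1.31% of all loci. No member had an adjusted p under 0.05 with edgeR by either label, and neither did any other locus, while 2797 loci had an unadjusted p under 0.05 by title and DESeq2 called 650 loci at an adjusted p under 0.05, of which 0 were members. The median log2 fold change was -0.13 over the 7 members and -0.01 over all loci.

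**Figure D2:**
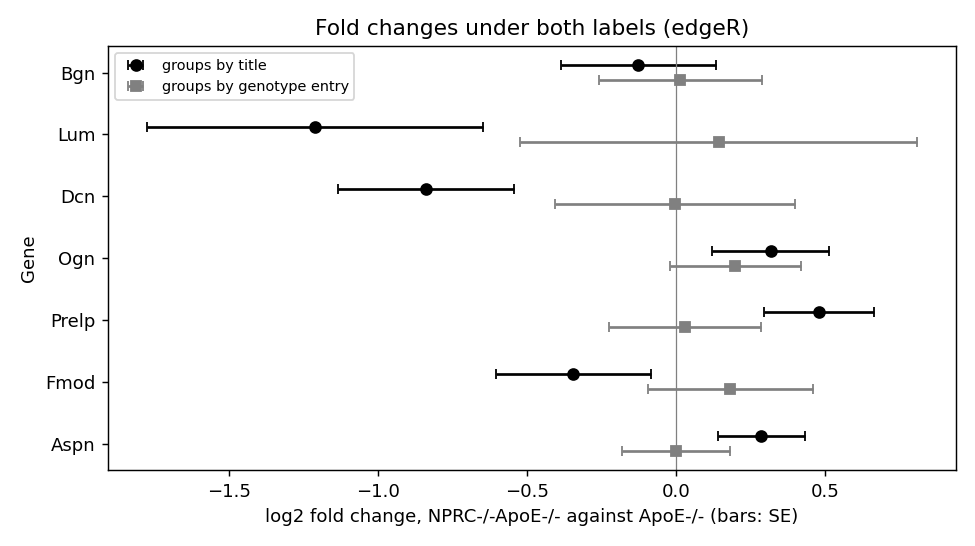
log2 fold change of 7 members, double knockout against ApoE-/-, with its SE from edgeR, for groups by title (black circles) and by genotype entry (grey squares). By title, Lum (-1.21) and Dcn (-0.84) lie lowest and Prelp (0.48) highest. By genotype entry the 7 values lie between 0.00 and 0.20.

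The summed level of the family overlapped between the groups, while its composition differed most in NPRC-/-ApoE-/- 2 and 3. The summed FPKM of the 8 members was 496.3, 638.0, 755.5, 875.2 and 428.4 in ApoE-/- 1 to 5 and 543.1, 376.1 and 419.1 in NPRC-/-ApoE-/- 1 to 3. The log2 means were 9.27 ± 0.424 (SD, n = 5) and 8.78 ± 0.272 (SD, n = 3), a ratio of 0.714 (two-sided exact permutation p = 0.143, against a smallest possible p of 0.0179). By genotype entry the ratio was 0.987 (exact permutation p = 0.946). As a share of all counts, the family took 0.264 to 0.455% of each library. The share of Lum in the summed FPKM was 25.6 to 45.9% in ApoE-/- libraries and 35.6, 12.4 and 16.2% in NPRC-/-ApoE-/- 1 to 3. Bgn took 28.9 to 34.6% in ApoE-/- and 33.5, 50.8 and 44.8% in the double knockout. It was the largest share in NPRC-/-ApoE-/- 2 and 3 and also in ApoE-/- 2 and 5. Prelp took 2.34 to 6.2% in ApoE-/- libraries and 4.32, 10.7 and 8.31% in the double knockout. These shares, like the order of levels, depend on the length used for each locus.

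**Figure D3:**
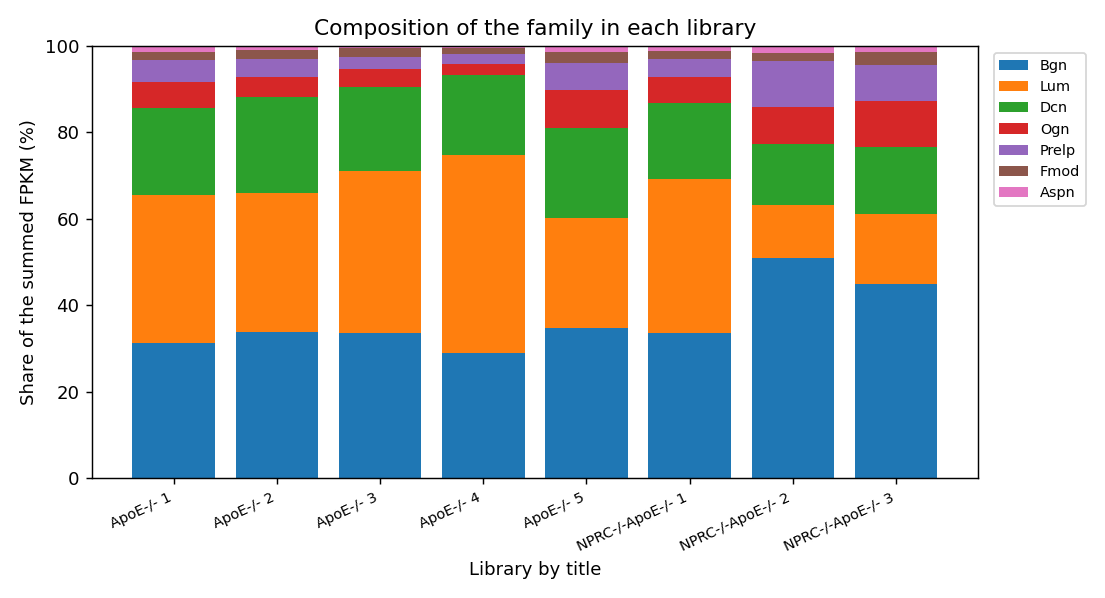
Share of each member in the summed FPKM of the family (%), stacked, in 8 libraries named by title (Kera is too low to draw). Bgn fills 50.8% and 44.8% in NPRC-/-ApoE-/- 2 and 3, where Lum is down to 12.4% and 16.2%.

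Ratios between members do not depend on the depth of a library. The Dcn to Bgn ratio of FPKM was 0.649, 0.658, 0.582, 0.639 and 0.6 in ApoE-/- 1 to 5 and 0.531, 0.276 and 0.347 in NPRC-/-ApoE-/- 1 to 3. This was the only one of 21 ratios whose titled groups did not overlap (log2 difference -0.755, two-sided exact permutation p = 0.0179, adjusted p = 0.225 over 21 ratios). By genotype entry its log2 difference was -0.0152 (exact permutation p = 0.964). The Lum to Prelp ratio spanned the widest range, 17.0-fold, from 1.15 in NPRC-/-ApoE-/- 2 to 19.6 in ApoE-/- 4. Its log2 difference by title was -1.75 (exact permutation p = 0.107), since NPRC-/-ApoE-/- 1 stood at 8.25. None of the 21 ratios passed at an adjusted p under 0.05 by either label. The smallest possible exact permutation p is 0.0179, so a single ratio without overlap could not have passed over 21 ratios.

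Over the 8 libraries taken without regard to their labels, Dcn varied with Lum, and Prelp varied against both. Log2 CPM values were correlated for 21 pairs, of which 10 were positive and 11 negative. Dcn and Lum varied together most closely (Pearson r = 0.97, exact permutation p = 0.000174, adjusted p = 0.00365, Spearman rho = 0.98, exact permutation p = 0.000397, adjusted p = 0.00833, n = 8). Without the 2 libraries farthest from the median of Dcn, ApoE-/- 4 and NPRC-/-ApoE-/- 2, r was 0.92, and for deviations from the titled group means it was 0.95. Prelp varied against Lum (r = -0.91, exact permutation p = 0.000546, adjusted p = 0.00573, rho = -0.86, exact permutation p = 0.0107, adjusted p = 0.108). Without NPRC-/-ApoE-/- 2 and 3 this r was -0.81 (6 libraries, exact permutation p = 0.0528), and within the titled groups -0.84. Prelp also varied against Dcn (r = -0.85, exact permutation p = 0.00332, adjusted p = 0.0233, rho = -0.83, exact permutation p = 0.0154, adjusted p = 0.108), with r = -0.66 without ApoE-/- 4 and NPRC-/-ApoE-/- 2, where 6 libraries gave an exact permutation p = 0.126. The remaining 18 pairs had an adjusted p over 0.05. By sign alone, pairs among Dcn, Lum, Bgn and Fmod and among Ogn, Prelp and Aspn were positive, and pairs across these sets were negative except Fmod and Ogn (r = 0.05, exact permutation p = 0.911, rho = -0.07). All 21 pairs kept their sign for deviations from the titled group means, and 18 kept it without 2 libraries. The libraries share the depth scaling, and 20 of 21 pairs kept their sign when total counts replaced TMM scaling.

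**Figure D4:**
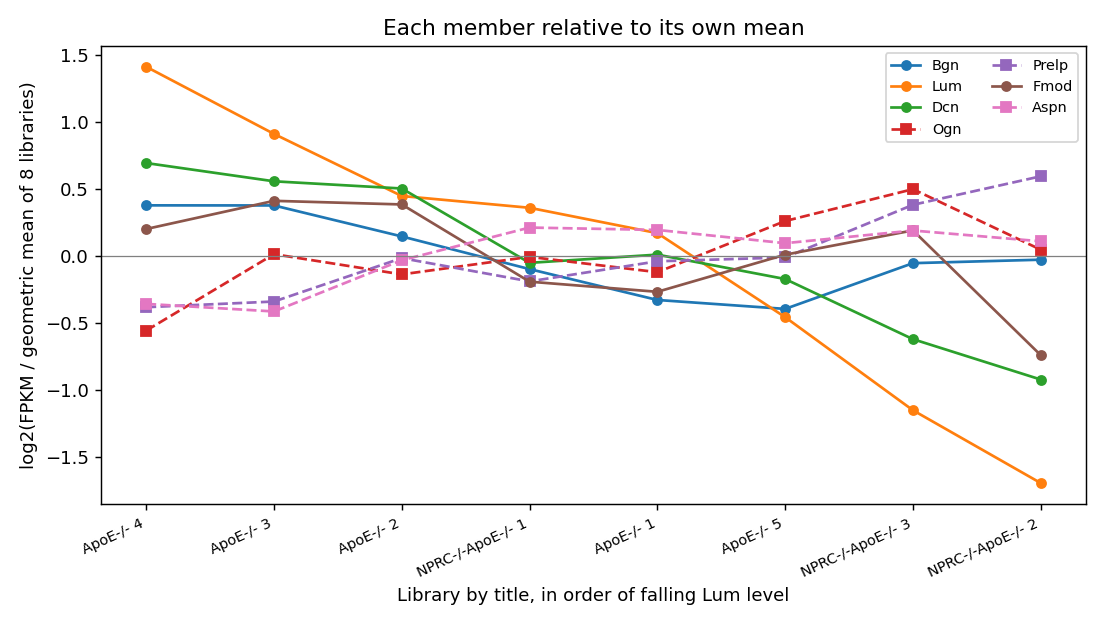
log2 of FPKM over the geometric mean of 8 libraries, with the libraries ordered by falling Lum level. Lum, Dcn, Bgn and Fmod (circles, solid) and Ogn, Prelp and Aspn (squares, dashed) mostly run in opposite directions, and Lum spans 46.57 to 401.3 FPKM.

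The 8 genes lie in 3 gene clusters and on the X chromosome in the mouse build GRCm38. On chromosome 10, Dcn (97479609 to 97518143), Lum (97565128 to 97572703) and Kera (97606879 to 97613692) follow each other on the plus strand, with gaps of 47.0 and 34.2 kb. The pair with r = 0.97 is thus also a pair of neighbours, while the level of Kera, next to Lum, was near 0. Such an r was not particular to this pair, as other loci came closer to each gene. The r was 0.992 for Atg5 with Dcn and 0.997 for B3galnt1 with Lum. A part of gene position was not tested. On chromosome 1, Prelp (133910304 to 133930224, minus strand) and Fmod (134037254 to 134048277, plus strand) lie 107.0 kb apart and had r = -0.46 (exact permutation p = 0.257, adjusted p = 0.3; rho = -0.43, adjusted p = 0.37; r = 0.09 without ApoE-/- 1 and NPRC-/-ApoE-/- 2). On chromosome 13, Aspn (49544443 to 49567557) and Ogn (49608046 to 49624501) lie 40.5 kb apart on the plus strand and had r = 0.53 (exact permutation p = 0.178, adjusted p = 0.22; rho = 0.36, adjusted p = 0.454), which was -0.33 without ApoE-/- 4 and NPRC-/-ApoE-/- 3. Bgn lies on the plus strand of the X chromosome (73483602 to 73495933).

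The sequence before the transcription start is shown for the 5 tested members that RefSeq promoters (GRCm38.p6) cover, to set the windows of members with a positive r to Lum (Bgn and Fmod) beside those with a negative r (Prelp, Ogn and Aspn). Of these 5, only Prelp had an adjusted p under 0.05 against Lum. Of the 8 members, 6 had an entry. Each line gives the 250 bases before the RefSeq start, 5′ to 3′, on the strand of the gene, with matches to any of 7 motifs in capitals. The motifs were searched on both strands. They were the TATA box with the letters TATAAA, the GC box with GGGCGG, the CCAAT box, an E-box with CAGCTG, the MCAT motif with GGAATG, the AP-1 motif with TGANTCA and the CArG box of smooth muscle genes.
Bgn, chrX:73483351-73483600 (plus strand): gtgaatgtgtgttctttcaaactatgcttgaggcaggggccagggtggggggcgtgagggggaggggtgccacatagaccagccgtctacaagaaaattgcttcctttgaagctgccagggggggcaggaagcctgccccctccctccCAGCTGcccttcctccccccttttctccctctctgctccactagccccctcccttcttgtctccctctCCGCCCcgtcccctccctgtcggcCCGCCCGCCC
Fmod, chr1:134037004-134037253 (plus strand): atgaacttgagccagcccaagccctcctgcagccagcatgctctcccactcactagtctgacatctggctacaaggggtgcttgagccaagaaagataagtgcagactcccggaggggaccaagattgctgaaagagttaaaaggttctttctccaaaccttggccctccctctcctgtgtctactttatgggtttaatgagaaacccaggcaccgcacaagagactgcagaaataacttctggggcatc
Prelp, chr1:133921402-133921651 (minus strand): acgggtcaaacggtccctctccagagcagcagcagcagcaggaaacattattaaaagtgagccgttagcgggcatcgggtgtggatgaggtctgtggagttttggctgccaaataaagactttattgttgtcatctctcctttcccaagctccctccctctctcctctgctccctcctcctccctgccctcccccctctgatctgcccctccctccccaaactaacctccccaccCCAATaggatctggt
Ogn, chr13:49607765-49608014 (plus strand): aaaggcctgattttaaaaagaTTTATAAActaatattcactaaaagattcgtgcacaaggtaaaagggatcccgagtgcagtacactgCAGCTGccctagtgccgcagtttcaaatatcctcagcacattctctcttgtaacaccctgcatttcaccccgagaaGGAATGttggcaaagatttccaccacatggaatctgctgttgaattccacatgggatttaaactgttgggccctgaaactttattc
Aspn, chr13:49544193-49544442 (plus strand): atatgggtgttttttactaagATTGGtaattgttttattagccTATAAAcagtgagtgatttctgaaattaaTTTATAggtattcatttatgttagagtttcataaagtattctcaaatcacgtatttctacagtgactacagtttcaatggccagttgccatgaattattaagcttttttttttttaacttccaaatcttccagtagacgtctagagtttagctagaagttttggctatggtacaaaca
No motif was matched in all 5 windows. The GC-rich Bgn window (64.4% G and C, against a median of 52.4% over 32841 promoters) held 3 GC box matches, at 34 to 29, 10 to 5 and 6 to 1 bases before the start, of which the last 2 overlap, and an E-box match. A GC box occurs in 32.7% of all promoter windows of this length and this E-box in 13%. The Fmod window held none of the 7 motifs. The Prelp window held a CCAAT box 15 to 11 bases before the start, a motif found in 33.9% of windows, and lies inside the longer Prelp locus that was assembled from these reads. The Ogn and Aspn windows were poorer in G and C (42.0 and 30.0%) and each had TATA box matches (12.4% of windows), all at least 173 bases before the start. Those of Ogn overlap each other. Ogn also had an E-box and an MCAT match (12.6% of windows), and Aspn a CCAAT match. AP-1 (6.75% of windows) and the CArG box (1.47%) were found in none of the 5.

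Other genes of the family were expressed at lower levels. Of 10 further family genes, 6 reached 1 FPKM in 3 libraries. They were Ecm2 (mean 11.3 FPKM), Podn (5.83), Tsku (3.84), Optc (1.34), Omd (1.13) and Chad (1.12). One of the 6 had an unadjusted p under 0.05: Optc (opticin, known from the vitreous of the eye and a neighbour of Prelp and Fmod) was at 1.76, 0.91, 0.84, 0.58 and 1.04 FPKM in ApoE-/- and at 1.2, 1.8 and 2.56 FPKM in NPRC-/-ApoE-/- (log2 fold change 0.90 ± 0.35, edgeR, unadjusted p = 0.0296, adjusted p = 0.328). The groups overlapped. Ecm2 ranged from 7.02 to 15.6 and from 8.06 to 17.01 FPKM (log2 fold change 0.43, unadjusted p = 0.165), and the median over the 6 was 0.11.

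Enzymes that build the sugar chains of these proteins were mostly lower by title, where 50.9% of all loci were lower. Of all loci, 7.13% had an unadjusted p under 0.05 as lower and 6.51% as higher. The titled groups did not overlap in 4.37% of loci as lower and in 2.88% as higher. Of 7 genes for the linker that joins the chain to the core protein, 6 were lower and 0 passed an unadjusted p under 0.05. Of 15 genes for chondroitin and dermatan sulfate chains, 11 were lower and 1 passed, in the other direction: Chst3, a chondroitin 6-O-sulfotransferase, was at 2.13 to 2.83 FPKM in ApoE-/- and at 3.66, 3.74 and 4.88 FPKM in NPRC-/-ApoE-/- without overlap (log2 fold change 0.69 ± 0.16, edgeR, unadjusted p = 0.00237, adjusted p = 0.254). Of 7 genes for keratan sulfate chains, the type that Lum and Fmod can carry, 7 were lower and 3 passed. B3gnt7, which extends keratan sulfate, was at 0.98 to 1.36 FPKM in ApoE-/- and at 0.95, 0.42 and 0.24 FPKM in the double knockout (log2 fold change -1.20 ± 0.39, unadjusted p = 0.013, adjusted p = 0.29). Chst2, a sulfotransferase, had a log2 fold change of -0.81 ± 0.32 (unadjusted p = 0.0309), and B4galt1 of -0.66 ± 0.25 (unadjusted p = 0.0248).

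Proteases and binding partners were mostly lower by title. Of 14 proteases and helpers that process or cleave these proteoglycans, 14 were lower and 6 passed an unadjusted p under 0.05, with a median log2 fold change of -0.52. Over all loci, 50.9% were lower, 7.13% passed as lower, 6.51% passed as higher and the median was -0.01. These lists and those of the sugar-chain genes were chosen with earlier results of these data known. Their counts beside these shares are therefore descriptive only. Mmp14, a membrane-bound metalloproteinase, was at 10.47 to 27.14 FPKM in ApoE-/- and at 10.21, 6.79 and 8.01 FPKM in NPRC-/-ApoE-/- (log2 fold change -1.21 ± 0.36, edgeR, unadjusted p = 0.00805, adjusted p = 0.272). Adamts5, an aggrecanase, had a log2 fold change of -0.69 ± 0.19 (unadjusted p = 0.00596) and Mmp2 of -1.04 ± 0.36 (unadjusted p = 0.0173). Of 11 fibrillar and associated collagen genes, 10 were lower and 2 passed, with a median of -0.62. Col14a1, a collagen that binds decorin, was at 55.23 to 78 FPKM in ApoE-/- and 39.03 to 41.21 FPKM in the double knockout (log2 fold change -0.62 ± 0.18, unadjusted p = 0.00729, adjusted p = 0.267), and Col1a1, the main chain of type I collagen, had -1.02 ± 0.49 (unadjusted p = 0.066). Of 16 growth factors and matrix ligands, 13 were lower and 3 passed, among them Tgfb1 with -0.72 ± 0.29 (unadjusted p = 0.0363). Of 12 receptors, 8 were lower and 3 passed, among them Egfr, a receptor of decorin, with -0.44 ± 0.15 (unadjusted p = 0.0157). Of 19 large and cell-surface proteoglycan genes, 13 were lower, 2 passed as lower and 1 as higher. Prg4 (lubricin) had -1.84 ± 0.52 (unadjusted p = 0.00665), and Cspg4, a proteoglycan of mural cells, had 0.48 ± 0.15 (unadjusted p = 0.0104). In none of these 9 lists did any gene pass an unadjusted p under 0.05 by genotype entry, where 1.31% of all loci did.

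Markers of the cells in the aortic wall were read beside the members, and their part in the results was not tested. In whole tissue, fewer cells of a type and less RNA per cell cannot be told apart. Of 10 macrophage markers, 10 were lower by title and 6 passed an unadjusted p under 0.05. Their summed level was 993.0, 1499.0, 2204.2, 2297.9 and 742.1 FPKM in ApoE-/- 1 to 5 and 1153.7, 471.8 and 347.0 FPKM in NPRC-/-ApoE-/- 1 to 3, which placed the same 2 libraries lowest. Of 10 smooth muscle markers, 10 were higher and 10 passed, with sums of 1370 to 1830 and of 1760 to 3030 FPKM. Of 11 fibroblast markers, 9 were lower and 3 passed (sums of 326 to 544 and 330 to 356 FPKM), among them Dpt, which binds decorin, with a log2 fold change of -0.86 ± 0.21 (unadjusted p = 0.00275). Of 7 nerve markers, 7 were lower and 6 passed, with sums of 18 to 39 and 7.22 to 13.4 FPKM. Of 9 adipocyte markers, 0 passed (183 to 868 and 438 to 723 FPKM), of 10 endothelial markers 1 passed (112 to 123 and 102 to 116 FPKM), of 4 red cell loci 0 and of 4 skeletal and cardiac muscle markers 0. Of 4 cartilage markers 1 was past it and of 2 lymphocyte markers 1, both lower, and 0 of 8 mesothelial markers reached 1 FPKM in 3 libraries. By genotype entry, 0 genes passed in every marker list, so 0 of 10 smooth muscle, 0 of 10 macrophage and 0 of 7 nerve markers did. Of all loci, 1.31% passed by genotype entry. Over all loci by title, 7.13% passed as lower and 6.51% as higher. The marker lists, too, were chosen with earlier results of these data known.

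The level of Lum followed the summed macrophage markers across the 8 libraries (Pearson r = 0.95, exact permutation p = 0.000422, adjusted p = 0.0157 over 56 relations, Spearman rho = 0.98, exact permutation p = 0.000397, adjusted p = 0.0111, n = 8, r = 0.96 without the 2 libraries farthest from the median). Dcn gave r = 0.95 (exact permutation p = 0.000843, adjusted p = 0.0157, rho = 0.95, adjusted p = 0.016, r = 0.95 without 2 libraries). Prelp gave r = -0.91 (exact permutation p = 0.0025, adjusted p = 0.0234, rho = -0.9, adjusted p = 0.0365, r = -0.83 without 2 libraries, exact permutation p = 0.0542). Against the summed collagen genes, the values were of the same size, with r = 0.95 for Lum (exact permutation p = 0.000595, adjusted p = 0.0157, rho = 0.98, adjusted p = 0.0111, r = 0.97 without 2 libraries), 0.94 for Dcn (exact permutation p = 0.00126, adjusted p = 0.0177, rho = 0.95, adjusted p = 0.016, r = 0.91 without 2 libraries) and -0.91 for Prelp (exact permutation p = 0.00208, adjusted p = 0.0233, rho = -0.9, adjusted p = 0.0365, r = -0.83 without 2 libraries). Against the summed fibroblast markers, r was 0.19 for Lum (exact permutation p = 0.662, adjusted p = 0.788, rho = 0.05, r = -0.23 without 2 libraries) and 0.4 for Dcn (exact permutation p = 0.325, adjusted p = 0.525, rho = 0.12, r = -0.13 without 2 libraries). Nerve markers gave r = 0.87 for Dcn (exact permutation, adjusted p = 0.0518, rho = 0.9, adjusted p = 0.0365), 0.83 for Lum and -0.83 for Prelp (adjusted p = 0.071 each). Smooth muscle markers gave -0.79 for Dcn, -0.83 for Lum and 0.81 for Prelp (adjusted p of 0.071 to 0.0876). Endothelial markers gave 0.74 for Dcn and 0.71 for Lum (adjusted p = 0.127 and 0.135). The nerve, smooth muscle and endothelial values were all smaller in size without 2 libraries. The sums of the macrophage, collagen and fibroblast lists are FPKM sums that weigh their most abundant genes most. These had means of 798 FPKM for Lyz2, 411 FPKM for Col1a1 and 184 FPKM for Gsn. The low r with the fibroblast sum therefore does not show how Lum and Dcn relate to fibroblasts. All these relations were added after the values were seen, so their adjusted p over 56 relations is descriptive only.

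**Figure D5:**
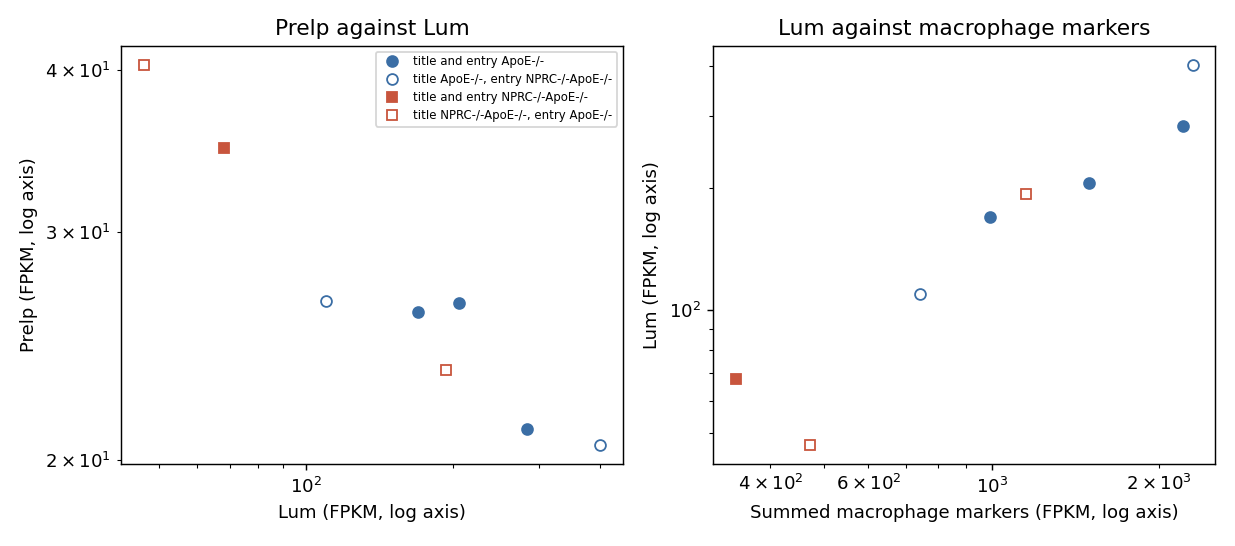
Left, Prelp against Lum, and right, Lum against the summed FPKM of 10 macrophage markers, for 8 libraries (log axes). Open symbols are libraries whose labels conflict. Prelp runs down from 40.39 to 20.52 FPKM as Lum runs up, and Lum is highest (401.3 FPKM) where the markers sum to 2297.9 FPKM.

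Among 3546 single-name loci with a mean of at least 5 FPKM, the pattern most like the mean of the 7 standardised member profiles belonged to Hyou1 (r = 0.96 over 8 libraries), Tpst1 (r = 0.96), Crispld2 (r = 0.95), Cyp2d22 (r = 0.94) and Copa (r = 0.94). They were selected as the highest values, so no test is given. The mean profile averages members that vary in opposite directions.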

How the data were processed

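Poly(A) RNA of whole aortas was sequenced by the authors from dUTP libraries. The submitters' processing notes name cutadapt 1.9, FastQC and the build GRCm38, and the methods name HISAT2 and StringTie. The authors deposited raw counts per assembled locus and FPKM values, and how the counts were made and whether strand was used are not given in the sources used here. Of the value columns, 0 lacked a sample. Total counts were 62969165 to 86693276 per library, and 8 libraries limit the precision. The members and lists were chosen with earlier results of these data known.

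After a filter of 1 FPKM in 3 or more libraries, the deposited counts of 20506 loci were tested with edgeR 4.0.16 (R 4.3.3), using TMM scaling, the quasi-likelihood test and Benjamini-Hochberg adjustment over all loci. All unadjusted p-values of fold changes are from this test. FPKM gave the levels between genes. Sums, ratios and correlations were compared with two-sided exact permutation tests (56 regroupings of 5 and 3 libraries, all pairings for correlations). Marker sums use the listed genes that passed the filter. Besides members and further family genes, the rule named at most 3 genes a list with the smallest unadjusted p under 0.05, the 2 most abundant and the 5 loci most like the members. Relations to marker sums, deviations from titled group means and the profiles most like a single member were added after the values were seen. Alternatives were the genotype entry, DESeq2 1.42.0, limma 3.58.1 (pseudocounts 1 and 0.1, or voom weights), other scalings and filters, a replicate block and each library left out. Counts of no pair of libraries came close to sampling noise (smallest mean chi-square per locus 92.7). Protein sequences were not used here.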

Additional observations from a re-analysis of the deposited data

Results flagged for a closer look

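In 22 groups of 5 libraries formed for the members, their summed level and 3 ratios, by title and by genotype entry, 2 had a library far from the other 4, where about 1 in 20 (1.1) would by chance. Both concern the library titled NPRC-/-ApoE-/- 2 among those entered as ApoE-/-. Prelp stood at 9.25 log2 CPM (counts scaled to the library) there, above the other 4 libraries. The log2 ratio of Dcn to Bgn in FPKM stood at -1.86, below them. By title, no group of 5 had such a library.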

How the results depend on the processing

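With groups by genotype entry, the number of members with an unadjusted p under 0.05 went from 2 to 0 and the number with a negative log2 fold change from 4 to 2. The log2 fold change turned to 0.015 for Bgn, 0.143 for Lum and 0.183 for Fmod, that of Aspn was 0.00, and the median of the 7 members was 0.029. In the 4 libraries with matching labels (3 against 1, values only), Fmod and the median were at 0.101, Dcn at -0.892, Lum at -1.575, Prelp at 0.60, Ogn at 0.666 and Aspn at 0.359. Leaving out single libraries gave 0 to 3 members with an unadjusted p under 0.05 (0 without NPRC-/-ApoE-/- 2) and, for Bgn, log2 fold changes of -0.24 to 0.005 (0.005 without ApoE-/- 3, which was then also the median of the members, whose lowest value was -0.24). Lum had an unadjusted p under 0.05 in 7 of 20 alternatives with a test, Dcn in 17, Prelp in 11. No member had an adjusted p under 0.05 in any of the 20. The adjusted p ranged from 0.0598 to 1 for Dcn, and from 0.0663 to 1 for Lum and for Prelp. The log2 difference of the summed FPKM of the family was -0.486 by title, -0.019 by genotype entry, -0.293 on counts and -0.637 to -0.36 with single libraries left out, at an exact permutation p over 0.05 in each.

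Libraries 1 to 3 of each titled group were compared as deviations of log2 CPM from the mean of those 3 libraries. Same-numbered libraries then had correlations of -0.314, -0.113 and 0.007 over all loci tested. No library correlated best with its own number. The replicate numbers thus gave no sign of pairing, though deviations from means of 3 libraries make this a weak check. With the replicate block, 1 member had an unadjusted p under 0.05, and with the same 6 libraries without the block 1 did. Over all loci, unadjusted calls numbered 2797 by title, 1813 with the block, 269 by genotype entry, 4666 without the filter, 5419 with voom weights, 4431 without NPRC-/-ApoE-/- 1, 1332 without 2 and 1373 without 3. Adjusted calls numbered 650 with DESeq2 and 130 with voom weights. The deviations from group means used for the member correlations, the single-member profiles and the relations to marker sums were added after seeing the data. The correlation of Dcn and Prelp was -0.70 for these deviations. The causes of these differences were not tested. With 3 libraries in a group, small differences could not be resolved, and Kera was limited by its depth of at most 14 counts.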

Other observations

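Single members had closer companions than their mean, found after the values were seen and given without a test. The 3 loci most like Lum over the 8 libraries were B3galnt1 (r = 0.997), a glycosyltransferase, Csf2ra (r = 0.99), a receptor chain of myeloid cells, and Galnt6 (r = 0.99), which starts O-linked glycans. The 3 most like Dcn were Atg5 (r = 0.99), Actr3 (r = 0.99) and Tmem176a (r = 0.99), and among those most like Prelp was Dsp (r = 0.96), which encodes desmoplakin. Ogn was most like Sost (r = 0.95), which encodes sclerostin, an inhibitor of WNT signalling with a mean of 50.0 FPKM in these aortas. Bgn was most like Lix1l, Capzb and Rxra (r = 0.99 each).

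Against the summed macrophage markers, Bgn had over 8 libraries a relation that missed the threshold (r = 0.62, exact permutation p = 0.107, adjusted p = 0.231, rho = 0.64, adjusted p = 0.256, r = 0.98 without the 2 libraries farthest from the median of the markers). Its difference from the values of Dcn and Lum was not tested. Ogn had the highest Spearman rho with the summed smooth muscle markers (rho = 0.88, exact permutation p = 0.00724, adjusted p = 0.0507, r = 0.77, exact permutation p = 0.0247, adjusted p = 0.0922, r = 0.75 without 2 libraries). By Pearson r, Prelp was higher (r = 0.81, exact permutation p = 0.0216, adjusted p = 0.0876, r = 0.14 without 2 libraries). Lum (r = -0.83) and Dcn (r = -0.79) were larger in size with the opposite sign.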
